A study of Mus musculus with 96 samples.

Results

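The 9 genes described here encode transcription factors of the Myc network: Myc, Mycl, Max, Mxd1, Mxd4, Mxi1, Mnt, Mga and Mlx. They were chosen by symbol, with earlier results of these data known, and all 9 were found among the 55487 genes of the count table. Their transcripts were measured in 96 single cells, the daughters of 48 divisions of wild type horizontal basal cells (HBCs). HBCs are stem cells of the olfactory epithelium (OE) that normally rest and enter division after injury. They were taken from mice aged 6 to 8 weeks, 2 days after an injection of methimazole, a drug that injures the OE, and were cultured before the daughters were picked by hand and sequenced by G&T-seq, which captures poly(A) RNA. All cells share this genotype, injury and culture, and there is no uninjured, uncultured or undivided group. The labels name neither mouse nor culture, so that the cells count as 1 sample of 1 condition, and every share or correlation below is a description of these cells without a test.

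The network is a set of basic helix-loop-helix leucine zipper proteins that bind DNA as dimers. MYC and MYCL pair with MAX, bind the E-box motif CACGTG and activate genes of growth and ribosome production. MXD1, MXD4, MXI1 and MNT pair with MAX on the same motif and repress through SIN3 corepressors, MGA joins MAX in a polycomb complex that silences germline genes, and MLX, the MAX-like protein, pairs with MondoA (Mlxip) and ChREBP (Mlxipl), which respond to glucose.

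The promoters are shown because several genes of the network carry the motif that their own products bind. The window from 250 bases before to 50 bases after the start site was read from RefSeq on build GRCm38.p6. Of the 9 genes, 8 were matched there, Myc was not, and Mxi1 had several start sites. The motif CACGTG, which reads the same on both strands, was found in 4 of these 8 genes and is in capitals below. It begins 3 bases before the start site of Max (chr12:76962199-76962498, minus strand), 219 bases before that of Mxd4 (chr5:34187661-34187960, minus strand), 123 bases before that of Mnt (chr11:74830674-74830973, plus strand) and 40 bases before that of Mlx (chr11:101087040-101087339, plus strand).
Max: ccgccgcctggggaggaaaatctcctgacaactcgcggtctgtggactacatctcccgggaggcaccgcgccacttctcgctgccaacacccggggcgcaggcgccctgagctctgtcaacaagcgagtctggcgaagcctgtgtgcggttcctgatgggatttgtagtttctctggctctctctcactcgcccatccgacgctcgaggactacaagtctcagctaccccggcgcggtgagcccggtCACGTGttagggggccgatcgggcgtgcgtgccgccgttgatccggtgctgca
Mxd4: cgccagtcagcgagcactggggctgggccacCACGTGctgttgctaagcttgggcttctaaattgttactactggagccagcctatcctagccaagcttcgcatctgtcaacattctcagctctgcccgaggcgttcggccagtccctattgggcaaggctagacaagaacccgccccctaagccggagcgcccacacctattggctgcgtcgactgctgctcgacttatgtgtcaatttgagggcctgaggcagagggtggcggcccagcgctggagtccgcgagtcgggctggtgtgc
Mnt: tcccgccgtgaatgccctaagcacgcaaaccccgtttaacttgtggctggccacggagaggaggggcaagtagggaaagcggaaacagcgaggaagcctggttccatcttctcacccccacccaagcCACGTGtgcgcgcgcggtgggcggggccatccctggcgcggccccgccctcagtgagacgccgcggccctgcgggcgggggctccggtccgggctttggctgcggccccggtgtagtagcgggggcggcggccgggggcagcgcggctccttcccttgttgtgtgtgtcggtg
Mlx: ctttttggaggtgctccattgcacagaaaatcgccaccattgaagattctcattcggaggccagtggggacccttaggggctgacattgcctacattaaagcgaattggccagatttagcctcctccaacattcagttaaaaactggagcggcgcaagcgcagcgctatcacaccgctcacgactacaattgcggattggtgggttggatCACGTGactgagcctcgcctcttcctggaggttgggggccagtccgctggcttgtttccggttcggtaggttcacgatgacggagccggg
The same letters were found in 2187 of 27025 promoter windows of all genes (8.09%). They were not found in the windows of Mycl, Mxd1, Mxi1 and Mga.

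Per cell, 29454150 to 44849003 counts fell on genes, with a median of 36152760, and ERCC spike-in transcripts took 1.06% to 5.75% of the counts. The deposited counts are in units of 75 bases of coverage and not in reads, so that a full read pair gives about 4 counts. Of all genes, 14463 had 10 or more counts in at least 10% of the cells, and all 9 network genes were among them. Of 8 HBC markers, 6 were counted in all 96 cells, among them Trp63, Krt5 and Krt14. The fewest cells with 10 or more counts of a marker were 65, and the lowest median was 0.799 TPM. For abundant genes, a count can be of the background size described below. Of 18 markers of other cell types, Kit, Sox10 and Cdh5 were at 0 in every cell, which for counting error alone allows a share of cells with a count of up to 3.12%, and 2 passed the same filter: Cd68, a macrophage gene with 10 or more counts in 57 cells, and Gap43, a gene of immature neurons, in 13 cells. The summed level of the 18 markers was between 0.0469 and 358 TPM, a level scaled for gene length and library size, with a median of 8.65 TPM.

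Low counts differed with how abundant a gene was over all libraries, which were pooled in 1 lane. For genes with a mean of 100 to 300 or of 300 to 1000 counts, cells under 2% of the mean had a median of 0 counts. For genes with a mean of 1000 to 3000 counts the median was 7 counts, or 0.449% of the mean. For genes with a mean of 3000 to 10000 counts the median was 19 counts, or 0.467% of the mean, and for those above 10000 it was 93 counts, or 0.433%. The bound of 2% itself moves with the mean. Counts of this size are read here as a background level, and their source was not tested.

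Among the Myc proteins, Myc was the most abundant gene of the network. Its gene (ENSMUSG00000022346, chr15:61985391-61990374, plus strand, GRCm38) had between 0.399 and 521 TPM, with a median of 105 TPM. All 96 cells had counts, from 25 to 24318 with a median of 4779.5. This range had a gap at its lower end: 7 cells had 25 to 38 counts and less than 1 TPM, and the next cell had 213. These 7 counts had a median of 0.597% of the mean count of Myc, beside the 0.467% of genes of like abundance.

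The 7 cells with less than 1 TPM of Myc came from 7 pairs and 7 of the 12 sets of 8 cells under which the data were deposited, and in each pair the sister had Myc. Their sisters had between 76.8 and 521 TPM, with a median of 128 TPM. In pair 21, Myc had 34 counts in one daughter and 24318 in the other. In pair 4 it had 25 and 7356 counts, and in pair 29 it had 35 and 9731 counts. At the other end, pair 44 had 4969 and 4086 counts. None of the 7 cells had 10 or more counts of Mycl, whereas Max was between 14.6 and 83.3 TPM in them.

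Mycl (ENSMUSG00000028654, chr4:122995652-123002485, plus strand), which encodes the L-Myc protein, was counted in 54 cells, with 10 or more counts in 38 cells. Its TPM had a median of 0.0526 and a maximum of 34.0, and the 10 highest cells held 62.8% of its summed TPM. It was above 10 counts in both daughters of 7 pairs, in one daughter of 24 pairs and in neither daughter of 17 pairs. Mycn, a further Myc gene that is no member of the set, had counts in 2 cells, with 600 counts in a daughter of pair 27.

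Max (ENSMUSG00000059436, chr12:76937269-76962201, minus strand), the shared partner, had a median of 45.5 TPM and a maximum of 119 TPM. It was listed at 0 in 1 cell, in pair 15, whose other daughter had 1109 counts. In 92 cells it had 1 TPM or more. Myc exceeded Max in TPM in 67 of 96 cells, with a median ratio of Myc to Max of 2.21 over cells. Max and Myc levels were not ordered together over cells (rho = 0.07), where rho is Spearman's correlation on log2(CPM + 1) and CPM is the count scaled to the library total.

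The antagonists of Myc were lower and were found in fewer cells. Mxi1 (ENSMUSG00000025025, chr19:53310518-53375810, plus strand) had the widest presence of them, with 10 or more counts in 75 cells, a median of 3.36 TPM and a maximum of 44.7 TPM. Mxd4 (ENSMUSG00000037235, chr5:34173883-34187720, minus strand) had 10 or more counts in 54 cells, a median of 0.208 TPM and a maximum of 85.1 TPM. Mxd1 (ENSMUSG00000001156, chr6:86647042-86669161, minus strand), known from differentiating epithelia, had 10 or more counts in 51 cells, a median of 0.127 TPM and a maximum of 174 TPM. A single cell, a daughter of pair 22, held 28.9% of the summed TPM of Mxd1, with 16122 counts beside 14 in its sister. Mnt (ENSMUSG00000000282, chr11:74830920-74845725, plus strand), which is broadly expressed in other tissues, was the least abundant member by its highest cell, with 10 or more counts in 48 cells and a maximum of 8.44 TPM.

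Cells differed in which antagonists reached 10 counts. Of Mxd1, Mxd4, Mxi1 and Mnt, 12 cells had all 4 at 10 or more counts, 34 cells had 3, 31 had 2, 16 had 1 and 3 had none. Spike-ins like Mxd1, Mxd4 and Mxi1 in level also reached 10 counts in only some cells, as given below. How far this split reflects incomplete detection was not tested. The summed level of these genes and Mxd3 was between 0.0882 and 205 TPM with a median of 25.4 TPM, against 0.462 to 526 TPM with a median of 109 TPM for the Myc genes. The antagonists together exceeded the Myc genes in 19 of 96 cells, among them the 7 cells with less than 1 TPM of Myc. The count of 19 rests in part on Mxd3, which is no member of the set and whose overlap with another gene is given below. In 1 daughter of pair 48, Mxd3 gave 46.4 of the 46.9 TPM of the antagonists, beside 31.0 TPM of the Myc genes. The count without Mxd3 was not taken. Both sums, which include the non-members Mycn and Mxd3, moved with little relation to each other (rho = 0.14, here on summed TPM).

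Mga (ENSMUSG00000033943, chr2:119897228-119969581, plus strand) was counted in all 96 cells, from 12 to 10718 counts, with a median of 11.8 TPM and a maximum of 68.2 TPM. Mlx (ENSMUSG00000017801, chr11:101087277-101092207, plus strand) was the second most abundant member, with a median of 58.6 TPM and a maximum of 125 TPM, and it exceeded Max in 59 of 96 cells. The last 385 bases of Mlx overlap Psmc3ip on the opposite strand, which had a median of 587 counts, and since the library marks no strand their reads cannot be told apart there. The Mlx partner Mlxip had a median of 9.03 TPM and counts in 92 cells, whereas Mlxipl had counts in 39 cells.

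Ordered by median TPM, the members ran from Myc over Mlx, Max, Mga, Mxi1, Mxd4, Mxd1 and Mnt to Mycl. The ranges over cells of every neighbouring pair in this order overlapped. Each cell had between 4 and 9 members at 10 or more counts, with a median of 7, and 7 cells had all 9. When a cell also had to reach 2% of the mean count of the gene, which leaves out the low counts described above, the members per cell were 3 to 9 with a median of 7, and 6 cells had all 9.

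**Figure D1:**
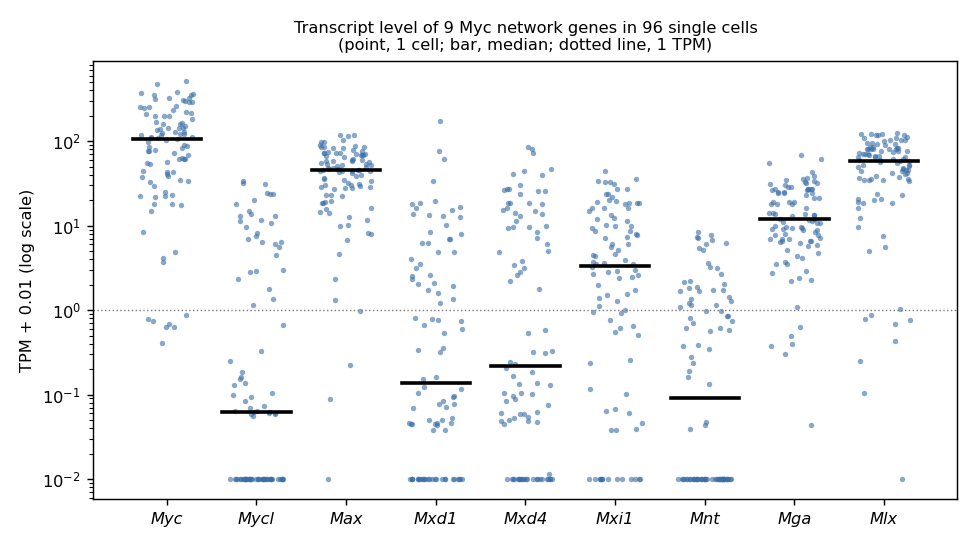
Transcript level (TPM + 0.01, log scale) of the 9 genes in each of 96 cells, with points for cells, bars for medians and a dotted line at 1 TPM. Myc spans 0.399 to 521 TPM with 7 cells below 1 TPM, and Mycl, Mxd1, Mxd4 and Mnt have medians below 1 TPM.

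The levels also moved between the 12 sets of 8 cells. Set medians of Myc ranged from 44.2 to 164 TPM, those of Max from 22.9 to 67 TPM and those of Mlx from 14.2 to 104 TPM. For Mxi1 they ranged from 0.369 to 29.2 TPM and for Mxd4 from 0 to 16.9 TPM. The sources used here do not say whether the cells of a set were handled together.

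For sister cells, a ratio was taken of the higher to the lower daughter, on counts scaled to the ERCC transcripts plus 1. Myc differed by at least 1.5-fold in 79.2% of the 48 pairs (exact 95% binomial interval 65 to 89.5%, which covers counting error only), with a median ratio of 3.5. Max did so in 66.7% of pairs with a median ratio of 1.93, Mlx in 70.8% with 1.82 and Mga in 75% with 2.49. Mycl did so in 79.2%, Mxd1 in 81.2% and Mxd4 in 75% of pairs. Some of these ratios rest on counts under 10. Mycl passed in 38 of 48 pairs although neither daughter had 10 or more counts in 17. For Mxd4, 36 pairs passed although neither daughter had 10 or more counts in 13. Mxi1 was highest at 83.3% of pairs, and Mnt lowest at 62.5%. All 9 members passed the ratio in at least 50% of pairs, but so did 79.5% of the 14463 genes, and the count of members is near that background.

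Spike-in transcripts, which were added in the same amount to every lysate, differed between sisters too, and were compared with members of a median TPM within 2-fold. On ERCC-scaled counts, 6 such transcripts passed the ratio in 20.8 to 70.8% of pairs, beside 79.2% for Myc, but all 6 belong to the transcripts that set this scale. Scaled to the library total, they passed in 29.2 to 70.8% of pairs, and Myc, at 68.8%, lay within that range. The coefficient of variation of their TPM over the 96 cells was 0.403 to 0.664, against 0.907 for Myc. For Max, 9 transcripts of like level passed in 66.7 to 83.3% of pairs on ERCC-scaled counts, and Max was at the lower end of that range. Mlx (8 transcripts, 20.8 to 83.3%) and Mxd4 (3 transcripts, 72.9 to 79.2%) lay within the range of their spike-ins. Mga (3 transcripts, 77.1 to 81.2%) and Mxi1 (4 transcripts, 83.3 to 87.5%) lay below or at the lower end of theirs. Mxd1, at 81.2%, was above its 2 transcripts (72.9 and 75%). Of the transcripts compared, 3 for Mlx and 1 for Max also set the scale. Some positions changed with the scaling. Scaled to the library total, Mxi1 (83.3%) lay above its range (64.6 to 79.2%) and Max (62.5%) below (66.7 to 83.3%), with Mga (70.8%) within (66.7 to 77.1%). By the median of ratios over genes, Mxd4 (81.2%) lay above its range (68.8 to 79.2%). Mlx and Mxd1 kept their positions under both. Transcripts matched on mean TPM in place of the median, again on ERCC-scaled counts, were an alternative chosen after seeing the data. Against these, Mxd1 (10 transcripts, 31.2 to 87.5%), Mycl (16 transcripts, 12.5 to 87.5%), Mnt (16 transcripts, 2.08 to 64.6%), Mga (11 transcripts, 60.4 to 87.5%) and Mxi1 (11 transcripts, 47.9 to 87.5%) all lay within the range.

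Presence in only one daughter was common for the rarer members. With 10 counts as the bound, Mxd1 was in both daughters of 13 pairs, in one of 25 and in neither of 10. Mxd4 was in both daughters of 19 pairs and in one of 16, Mxi1 in 30 and 15, and Mnt in 16 and 16. Spike-in transcripts of like median TPM reached this bound in 38 to 42 cells for Mxd1 and 38 to 47 for Mxd4. They did so in 55 to 77 cells for Mxi1, 65 to 93 for Max and 65 to 96 for Mlx. No transcript matched Mnt. The share of pairs with presence in 1 daughter was not taken over all genes or spike-ins. How much of this presence comes from incomplete detection was not tested. In the widest pairs, Mxd1 had 7780 and 0 counts (pair 8), Mxd4 had 0 and 2091 (pair 47), Mxi1 had 1220 and 0 (pair 44) and Mnt had 699 and 0 (pair 16). Mlx had 4489 and 0 counts in pair 15, where Max had 0 and 1109, so that each daughter of this pair lacked counts of a different member.

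**Figure D2:**
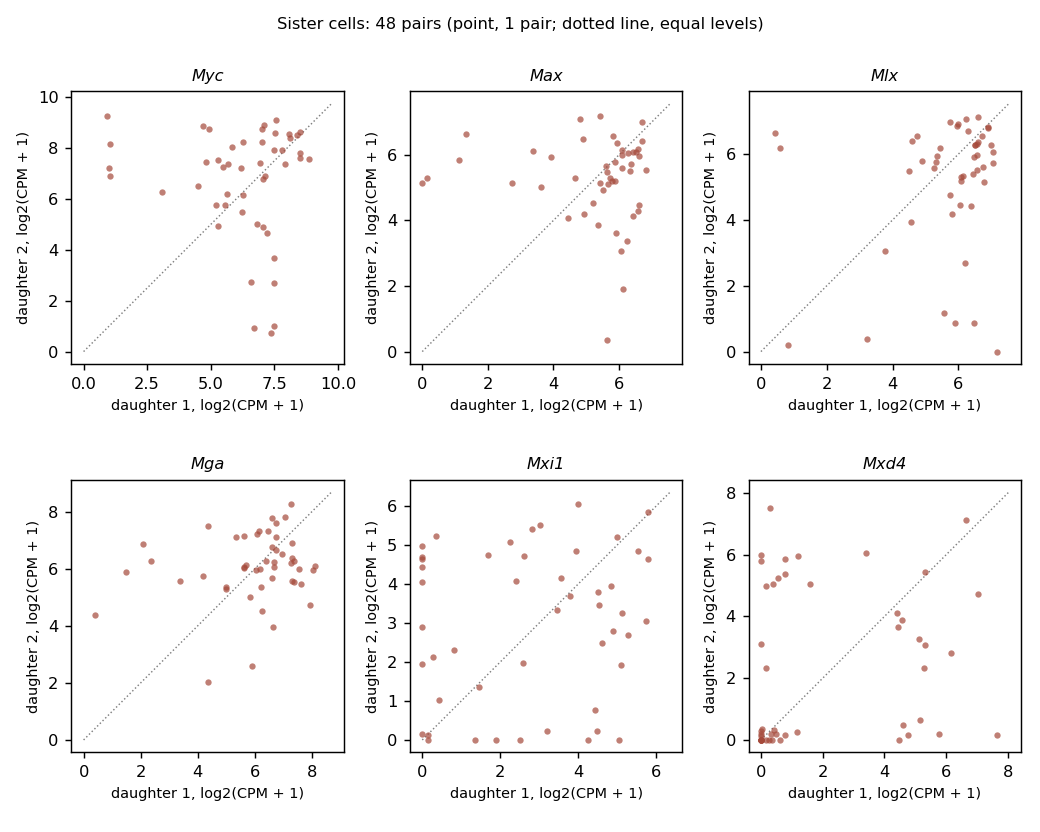
Level of 6 members in daughter 1 against daughter 2, log2(CPM + 1), with points for the 48 pairs and a dotted line at equal levels. For Myc, 7 pairs have one daughter near the axis and the other well above it, and for Mxd4 many pairs lie along an axis.

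Likeness of sisters was measured by the intraclass correlation on log2(CPM + 1), which is 1 when sisters are equal and pairs differ, and near 0 when sisters are no more alike than other cells. The members lay between -0.11 for Myc and 0.34 for Mnt, with Max at -0.07, Mxd1 at -0.03, Mycl at -0.02, Mxi1 at 0.14, Mxd4 and Mga at 0.18 and Mlx at 0.19. Their median was 0.14, beside 0.11 over the 14463 genes, where the quartiles were -0.01 and 0.25. Myc stood at percentile 8.69 of all genes and Mnt at percentile 86.2. An intraclass correlation of 0.5 or more was reached by 0 of 9 members and by 4.40% of all genes.

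**Figure D3:**
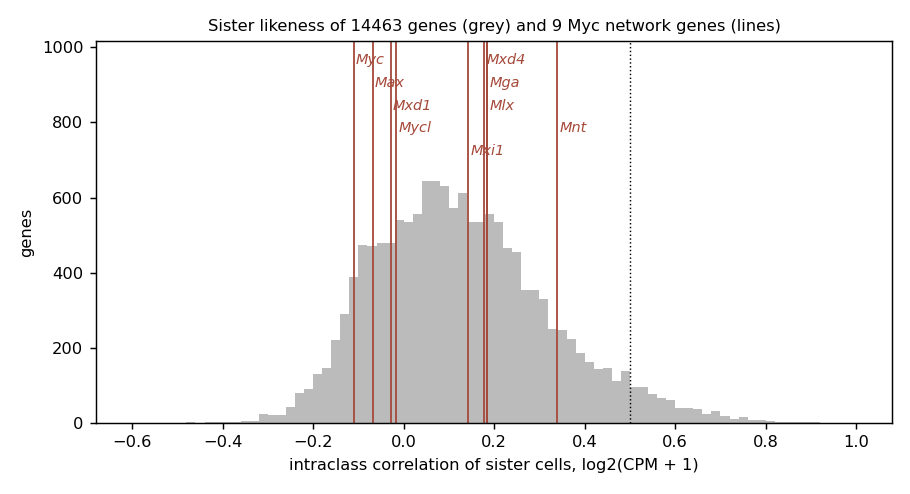
Intraclass correlation of sister cells, log2(CPM + 1), for 14463 genes (grey bars) and the 9 members (lines), with a dotted line at 0.5. The members lie between -0.11 and 0.34, within the bulk of the genes.

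The members showed little order among themselves over the 96 cells. The 36 pairs of members had rho between -0.15 (Max and Mnt) and 0.27 (Mxi1 and Mnt), with a median of 0.01. These cells share 1 lane and a scale that sums to a total. No gene of 14462 had a rho with Myc past 0.4 in either direction (0%). Its highest were Tfcp2l1 (0.36), Gm47692 (0.36), Gm17046 (0.34), Hypk (0.33) and Gm49428 (0.33), and its lowest was Krt7, a keratin of simple epithelia, at -0.39.

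Genes that MYC is known to activate were abundant in these cells, and over the 96 cells their scores had rho near 0 with the Myc transcript. All 20 ribosome biogenesis genes passed the filter, and their medians ran from 11.5 to 1178 TPM, with Ncl (nucleolin) at 178 TPM and Npm1 (nucleophosmin) at the top. All 18 genes of metabolism and growth passed as well, among them Ldha (lactate dehydrogenase, 5619 TPM) and Odc1 (polyamine synthesis, 239 TPM), whereas Tert had a median of 0.269 TPM. The mean log2 level of the biogenesis genes had a rho of 0.06 with Myc over cells and -0.03 within pairs. For the metabolism genes the values were -0.09 and -0.23. Bop1, a ribosome assembly factor, was highest of the biogenesis genes with a rho of 0.22 with Myc. RNA content, taken as gene counts per ERCC count, had a rho of -0.12 with Myc.

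Within pairs, Myc ran against the genes of G2 and mitosis. The score of 15 genes of G2 and mitosis had a rho of -0.24 with Myc over the 96 cells and of -0.42 on deviations from the pair mean, where 0.235% of the 14463 genes were at or below -0.4. In 32 of 48 pairs the daughter with more Myc had the lower score, and in 16 pairs it had the higher score. The score of 13 genes of S phase had a rho of 0.03 with Myc over the 96 cells and of -0.19 within pairs, where it was opposite to Myc in 28 pairs. Single genes of the G2 and mitosis list were weaker: the rho within pairs was -0.29 for Top2a (topoisomerase), -0.31 for Kif11 (a mitotic kinesin), -0.23 for Mki67 and 0.04 for Aurkb. On ERCC-scaled counts the value for the score was -0.23, and leaving out each set in turn gave -0.54 to -0.33. Myc also had a rho of -0.43 within pairs with the SIN3 corepressor genes, which was -0.06 over the 96 cells. For the SIN3 list, the share of all genes past 0.4 within pairs was not taken.

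**Figure D4:**
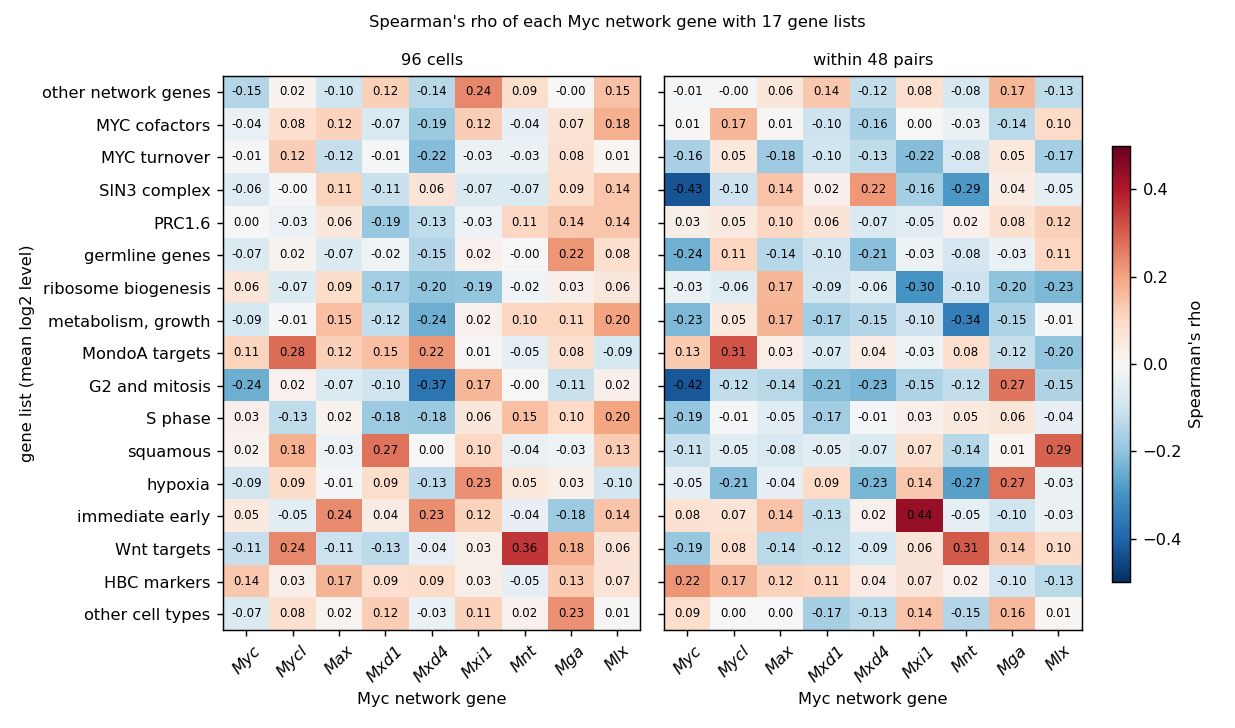
Spearman's rho of each of the 9 members (columns) with the mean log2 level of 17 gene lists (rows), over 96 cells (left) and within 48 pairs (right), with red for positive and blue for negative values. Over cells the values lie between -0.37 and 0.36. Within pairs, where each rho rests on 48 differences and passes 0.4 more easily, 3 of 153 pass 0.4 in size.

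Over the 96 cells, none of the 153 relations of the 9 members with 17 gene lists passed 0.4 in size. The furthest were Mxd4 with the G2 and mitosis score at -0.37 and Mnt with Wnt target genes at 0.36. At or below -0.4 with the G2 and mitosis score, which Mxd4 did not reach, were 0.0968% of the 14463 genes. The share at or below -0.37, and any share for the Wnt target genes, were not taken. Of the 7 Wnt target genes, 3 passed the filter, Axin2, Rnf43 and Znrf3. Mxd1 had a rho of 0.27 with 15 squamous genes such as Ivl and Sprr1a, which was -0.05 within pairs. Mxi1 had a rho of 0.44 within pairs with immediate early genes such as Fos and Jun, which was 0.12 over the 96 cells. For the immediate early list, the share of all genes past 0.4 within pairs was not taken. Mxd3, which is no member of the set, had the opposite sign to Mxd4, with a rho of 0.34 with the G2 and mitosis score, and 105 bases of it overlap Prelid1 on the other strand, a gene with a median of 29858 counts.

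On log2(CPM + 1), Mxd4 was the member with the most genes past 0.4, with 43 genes against 0 to 7 for the others. This order held for that scale and for TPM but not on ERCC-scaled counts, where Mxd4 had 9 such genes, Max 198, Mga 157, Mlx 135 and Mxd1 17, the genes of these 4 all being positive. On CPM, a rho past 0.4 in either direction was found for 0.297% of 14462 genes, which were 9 positive and 34 negative genes. The highest were Klf3 (a repressor of the Kruppel-like family, 0.52), Vat1 (0.45), Fth1 (ferritin heavy chain, 0.44), Hs3st1 (0.43) and Spint1 (a protease inhibitor of epithelia, 0.42). The lowest were Ilf2 (-0.55), Eef1d (a translation elongation factor, -0.55), Ranbp1 (a partner of the nuclear transport GTPase Ran, -0.53), Rpl29 (a ribosomal protein, -0.52) and Hnrnpa1 (an RNA-binding protein, -0.49). Also among the 34 were the biogenesis gene Ncl (-0.45), the metabolism gene Nme1 (-0.44), Hspd1 and Hspe1, the chaperonins of mitochondria, and Racgap1 (cytokinesis), Hmgb2 (chromatin) and Tuba1b (tubulin), whose own rho with the G2 and mitosis score was 0.82, 0.79 and 0.68. Of the lists, 1 of 20 biogenesis genes, 1 of 18 metabolism genes and 0 of 15 G2 and mitosis genes were among the 34. Names that begin with Gm, many of which are given to pseudogenes and can share reads with their parent genes, were 8 of the 34.

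Within pairs, 2 of the 34 negative and 2 of the 9 positive genes passed 0.4. The genes past 0.4 with Mxd4 within pairs were 30 positive and 27 negative ones. The deviations of 2 sisters mirror each other, so that a rho within pairs rests on 48 differences and passes 0.4 more easily. How many genes would pass without any relation to Mxd4 was not tested, and these genes are not read as a set tied to it. On ERCC-scaled counts 7 of the 34 and 2 of the 9 passed, and with cells centred within their set 29 and 7 did. Mxd4 had no count in 23 cells and 1 to 9 counts in 19, so that ties and low values enter each rho. The level of Mxd4 had a rho of -0.20 with the library total and of -0.02 with RNA content, and their part in the result was not tested.

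**Figure D5:**
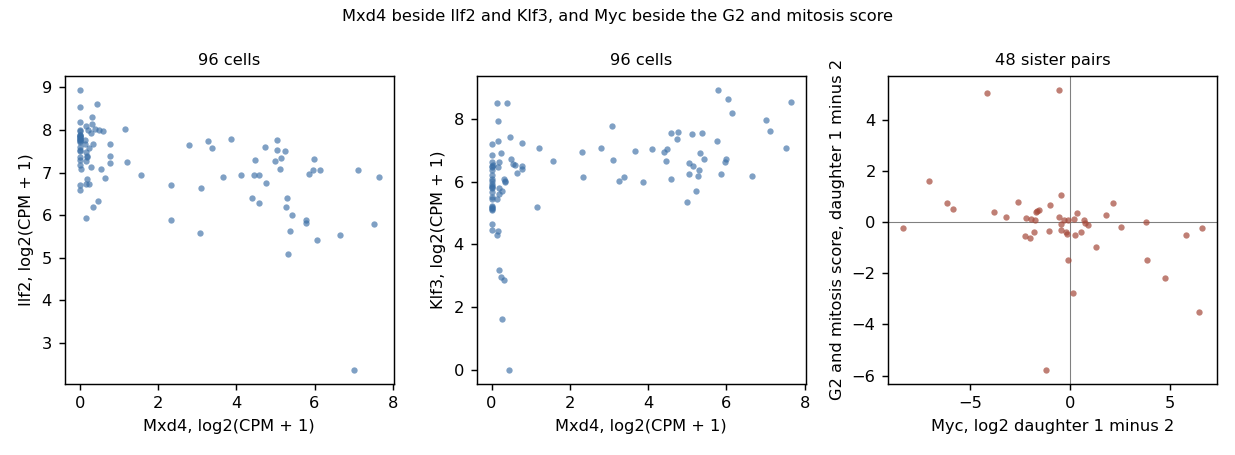
Left and middle, Ilf2 and Klf3 against Mxd4 in 96 cells, log2(CPM + 1); right, the difference of daughter 1 minus daughter 2 in the G2 and mitosis score against that in Myc for 48 pairs. Ilf2 falls (rho -0.55) and Klf3 rises (rho 0.52) with Mxd4, and pairs lie more often in the upper left and lower right of the plot (32 of 48).

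The other members had few such genes on CPM. Mxi1 had 2 positive and 5 negative genes past 0.4, the highest being Rbl2 (a pocket protein of quiescent cells, 0.42) and Ddr1 (a collagen receptor, 0.40), with Cbx7, Arhgef11 and Wee1 next, and the lowest Septin7 (a cytoskeletal GTPase, -0.45). Mxd1 had 3 negative genes, Cacybp (-0.46), Mbnl1 (-0.43) and Hacd3 (-0.42), and its highest were Upk3bl (0.40), Psca (0.38), Mfsd1 (0.38), Tnnt1 (0.37) and Ddx50 (0.37), none of which reached 0.4. Mnt had 1, Sugct at -0.42, and its highest were Lima1 (0.39), Ube3b (0.39), Kcmf1 (0.37), Acsl4 (0.37) and Dsel (0.36). Mlx had 1, Ppp2r3d at 0.48, followed by Atad5 (0.40), Gm49708 (0.39), B4galt3 (0.37) and Gm50321 (0.37). Mga had 1, Swt1 at 0.40, followed by D430013B06Rik (0.40), Reps1 (0.39), Ipo7 (0.38) and Rnf213 (0.38).

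Mycl and Max had none. The highest for Mycl were Fyn (a Src family kinase, 0.40), Cep120 (0.38), Wdr62 (0.38), Krt16 (a keratin of stressed epithelia, 0.36) and Mpv17 (0.36). The highest for Max were Efcab7 (0.35), Epor (the erythropoietin receptor, 0.35), Arhgef17 (0.34), Eef1aknmt (0.33) and Sash1 (0.33). Txnip, a target of MondoA and MLX, had a median of 21.9 TPM.

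The listed polycomb partners of MGA were widely counted and the listed germline genes rarely. All 12 genes of the PRC1.6 list, such as Pcgf6, L3mbtl2 and E2f6, passed the filter, beside 14463 of all 55487 genes. Of 12 germline genes, 0 passed, none had 10 or more counts in more than 6 cells, and Slc25a31 and Tex101 had no count in any cell. The other 10 had counts in 1 to 6 cells, and the highest were Stag3 (1490 counts), Tdrd1 (741) and Tdrkh (593). Whether MGA has a part in their low counts was not tested. The motif CACGTG was in 8 of the 12 promoter windows of these germline genes, in 6 of 16 windows of the metabolism genes, in 3 of 16 of the biogenesis genes and in 0 of 12 of the G2 and mitosis genes, beside the share of all windows given above. The cofactors of MYC (13 of 13) and the genes of MYC turnover (8 of 8), such as Fbxw7 and Huwe1, also passed the filter.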

How the data were processed

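The transcriptomes of 96 daughter cells of 48 HBC divisions were measured by G&T-seq. The authors trimmed reads with Trimmomatic 0.39, aligned them with STAR 2.7.11a to GRCm38 with ERCC sequences, and deposited the estimated count of each gene made by StringTie 2.2.1. These counts are coverage times length divided by 75 bases, as tested on the ERCC transcripts. The deposited tables per cell also give TPM, scaled by the authors for length and library, and a coverage signal, used here only to find the unit of the counts.

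Values were computed with Python 3.11.15, numpy 2.4.6, scipy 1.17.1 and pandas 2.3.3, and drawn with matplotlib 3.10.9. Sister ratios used counts plus 1, after each cell was scaled by its median ratio to the typical cell across 22 ERCC transcripts (of 92) with a count everywhere. Intraclass correlations and Spearman's rho used log2(CPM + 1), and CPM was taken over genes. The rho of the summed antagonists with the summed Myc genes used TPM. A list's score is the mean log2 level of its genes with any count, and values within pairs are deviations from the pair mean. These deviations mirror each other in the 2 sisters, so that a rho within pairs rests on 48 differences. The background was every gene that reached 10 counts in 10% of cells. Both correlations were tested on simulated counts, with strong relations set in well counted genes and no added zeros. That setting does not cover the rarer members, which had many zeros. Shares have exact Clopper-Pearson 95% intervals, and the limit beside a count of 0 is 3 cells of the total.

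Members, list genes with a rho of 0.5 or more in size, the 5 genes most like each member and the pairs of largest ratio were to be named, and the other genes were named as examples of their lists or after their values were seen. The members and lists were chosen with earlier results of these data known. No comparison of groups was made, since the labels name no mouse or culture. The closing section gives the effect of other scalings, cutoffs and sets left out.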

Additional observations from a re-analysis of the deposited data

How the results depend on the processing

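With another scaling, pseudocount, cutoff or choice of pairs, 7 to 9 of the 9 members passed the sister ratio in at least 50% of pairs: Max (47.9%) and Mlx (45.8%) fell below it with a cutoff of 2 and Mnt (43.8%) on TPM. The number of members with an intraclass correlation of 0.5 or more was 0 under every alternative, and the value of Mnt was 0.12 with cells centred within their set. At 1 TPM or more, 0 members were detected in all 96 cells in place of 2. The number of the 153 relations past 0.4 was 0, and it was 5 on ERCC-scaled counts, 1 with Pearson's correlation, 2 with cells centred within their set, 3 within pairs, 0 to 1 when a set was left out, and 2 with a cutoff of 0.3. Among alternatives chosen after seeing the data, the number of genes past 0.4 with Mxd4 was 43, and it was 9 on ERCC-scaled counts, 95 with Pearson's correlation, 96 with cells centred within their set, 57 within pairs (of which 4 were among the 43), and 32 to 87 when a set was left out; without set 3, 5, 6 or 9 it was 77, 66, 72 or 87. The relation of Myc with the G2 and mitosis score within pairs was -0.23 on ERCC-scaled counts, -0.37 on TPM, -0.34 with Pearson's correlation, and -0.47 to -0.39 when a pair was left out. Of the ERCC transcripts, those matched on mean TPM, also chosen after seeing the data, passed the ratio in the same ranges for Max and Myc, and wider ranges for the rarer members. The causes of these changes were not tested. Counts near 10 amount to 2 or 3 read pairs, which limits what can be said of the rarer members.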
